A study of Canis lupus familiaris with 51 samples.

Results

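Of 51 canine cutaneous mast cell tumors (MCTs), the 13 with the highest level of S100A9 RNA were compared with the 13 with the lowest, and the 25 tumors between them were kept for a separate comparison. The samples were spontaneous tumors of pet dogs with no experimental treatment, 1 tumor per dog and per array, taken from the centre of the mass at surgery and kept in RNAlater until the RNA was isolated. Each RNA was labeled with Cy3 and hybridized to an Agilent canine array, on which the brightness of a probe reads how much of its transcript the tissue held. The S100A9 score of a tumor was the mean log2 signal of the 2 S100A9 probes after quantile normalization over the 51 arrays. The groups were chosen by this score, so the S100A9 values are a description and carry no test. The study sorted MCTs into differentiated and undifferentiated ones: 18 reference samples by histological grade and mitotic index, and the others, its unknown samples, by class prediction on these same arrays. This class was a covariate in every comparison unless stated otherwise. No tumor type other than MCT and no normal skin was among the samples used here, and a piece of tumor holds mast cells together with stroma, blood cells, infiltrating leukocytes and sometimes the overlying epidermis. In such bulk tissue, fewer cells of a type and less RNA per cell cannot be told apart.

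S100A8, S100A9 and S100A12, the calgranulins, are small calcium-binding proteins of the EF-hand type whose genes lie side by side. S100A8 and S100A9 pair with each other, fill the cytosol of neutrophils and monocytes, and when released act as alarm signals that bind metal ions and draw in further leukocytes. Keratinocytes also make them, weakly in resting epidermis and strongly where the epidermis is wounded, inflamed or hyperproliferative. A high S100A9 level in a skin tumor can therefore be read together with the genes of either cell type, and the groups were proposed as a contrast of neutrophils and inflammation.

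The probes for the calgranulins are shown because a rise of S100A8 or S100A12 with S100A9 is informative only if the probes do not read the same transcript. The array design places them on chromosome 7 (genome build not given in the sources used here): the S100A8 probe at chr7:46518533-46518592 and the S100A12 probe at chr7:46532382-46532441, both on the plus strand, and the S100A9 probes at chr7:46544282-46544341 and chr7:46544312-46544371 on the minus strand. Each is 60 bases long. Capitals mark the 30 bases that the S100A9 probes share, and the S100A8 and S100A12 probes are in lower case throughout.
S100A8: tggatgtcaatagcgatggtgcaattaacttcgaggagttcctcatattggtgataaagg
S100A12: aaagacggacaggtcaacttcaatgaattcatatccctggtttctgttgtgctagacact
S100A9, 3′ probe: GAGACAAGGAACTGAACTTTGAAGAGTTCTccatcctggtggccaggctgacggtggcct
S100A9, 5′ probe: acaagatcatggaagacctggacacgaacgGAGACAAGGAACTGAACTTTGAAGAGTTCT
The longest run of bases that a probe for S100A8 or S100A12 had in common with one for S100A9 was 6, and the S100A8 and S100A12 probes had a run of 6 in common with each other. Over the 51 tumors the levels of the S100A9 probes, which overlap in sequence, had a Pearson correlation of 0.9993.

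The S100A9 score ran from 6.87 to 17.56 on the log2 scale, with a median of 10.41. In the S100A9-high tumors the lowest score was 13.59, the median 16.58 and the highest 17.56. In the S100A9-low tumors the lowest was 6.87, the median 8.25 and the highest 9.14. The medians were 8.32 log2 units apart. The last tumor taken into the S100A9-high group stood at 13.59 and the next one left out at 12.89, while at the other end 9.14 was taken in and 9.31 left out. The scores thus fell without a break from one tumor to the next at both limits, and the widest gap near the top, 1.56, lay inside the S100A9-high group, below its 10 highest tumors.

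**Figure D1:**
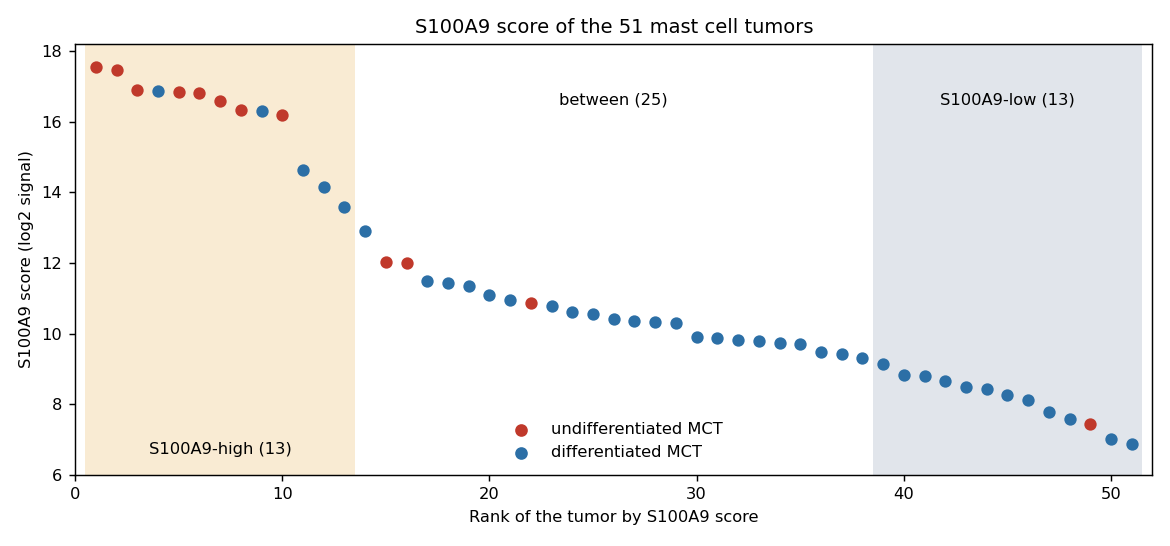
The S100A9 score (log2 signal, vertical axis) of each of the 51 tumors against its rank (horizontal axis), 1 point per tumor, red for undifferentiated and blue for differentiated MCT, with the shaded bands holding the 13 S100A9-high and the 13 S100A9-low tumors. Undifferentiated tumors make up 8 of the S100A9-high and 1 of the S100A9-low group.

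The groups differed in class. Undifferentiated MCTs made up 8 of the 13 S100A9-high tumors, 1 of the 13 S100A9-low tumors and 3 of the 25 between (high against low, Fisher's exact test, two-sided p = 0.0112, odds ratio 16.8 with a 95% interval of 1.6 to 915). The S100A9-low group thus had a single undifferentiated tumor, T9.1, to set against 8. Reference samples numbered 4 in the S100A9-high group and 6 in the S100A9-low group. The S100A9-high dogs were 4 males, 7 females and 2 of no stated sex, and the S100A9-low dogs 6 males and 7 females (Fisher's exact test, two-sided p = 0.697). Ages ran from 5 to 13 years (mean 9.58 ± 2.68, SD, n = 12) and from 3 to 13 years (7.62 ± 2.72, n = 13), a difference of 1.97 years (permutation test, two-sided p = 0.0899). Boxers, Labrador Retrievers and crossbreds were found in both groups, with 3, 3 and 3 dogs in the S100A9-high and 2, 3 and 3 in the S100A9-low group.

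Arrays of both groups shared 7 slides and 5 scan sessions, and all 13 S100A9-high arrays were scanned in sessions that also held S100A9-low arrays. Spots well above background were 69.8% ± 1.93 (SD) of all spots on the S100A9-high and 67.4% ± 3.69 on the S100A9-low arrays, 2.38 percentage points apart (permutation test, two-sided p = 0.0467), and between 59.4% and 74.8% on the 51 arrays. Whether this difference played a part in the comparison was not tested. Defining mast cell genes were read on every array of both groups: the receptor tyrosine kinase gene KIT, the tryptase gene TPSAB1, the chymase gene CMA1 and MS4A2, a chain of the high-affinity IgE receptor, were well above background on 13 of 13 arrays in each.

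In the 26 tumors 511 of 43534 probes other than those for S100A9 were called, that is, had an adjusted p under 0.01 by limma (Benjamini-Hochberg) together with at least a 2-fold difference. This is 1.17% of them, with 493 (1.13%) higher and 18 (0.0413%) lower in the S100A9-high tumors. Taking the brightest probe for each of 11712 genes with a symbol, 192 genes (1.64%) were up-regulated and 3 (0.0256%) were down-regulated. The median log2 fold change over all these genes was -0.04, and 5191 of them had a value above 0. The up-regulated genes were led by genes of the calgranulin family and of the epidermis. Of the 192 genes, 19 belonged to a list of keratinocyte or stress-associated keratinocyte genes and 163 belonged to none of the 26 lists used. The 15 measured neutrophil granule genes held 2 of them. None was among the 11 measured neutrophil receptor genes, the 6 phagocyte oxidase genes or the 11 mast cell genes. At the 1.64% of all genes that rose, lists this short may well hold none. The counts alone do not settle whether a neutrophil programme goes with S100A9. The groups are therefore called by their S100A9 score. Without T9.1 the count was 143, of which 138 were among the 511. The S100A9-low group then has no undifferentiated tumor. With class as covariate the difference then rests on the 5 S100A9-high and 12 S100A9-low differentiated tumors, as among differentiated tumors alone. Of the 195 genes, 52 kept the call without T9.1, and all 195 kept their sign and at least a 2-fold difference. The count was 179 without T87 and 205 without T103, both differentiated S100A9-high tumors, and 767 without T58, another of these. It was also 1096 without the class as covariate, 901 higher and 195 lower.

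S100A8 rose most surely with S100A9. Its level was between 14.46 and 17.41 (log2 signal, median 16.74) in the 8 S100A9-high tumors with a usable spot and between 7.34 and 10.37 (median 9.12) in the 13 S100A9-low tumors, the spot being flagged as an outlier on the other arrays. The groups did not overlap, and the tumors between them, from 9.42 to 13.32, filled the space. The log2 fold change was 7.17 ± 0.42 (SE), or 144-fold (limma, adjusted p = 3.89e-09). With flagged spots kept it was 6.93 over all 26 tumors (limma, adjusted p = 2.69e-11).

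S100A12, the third calgranulin, followed the same course. The 10 S100A9-high tumors with a usable spot read from 13.96 to 18.1 (median 17) and the 11 S100A9-low tumors from 7.62 to 10.48 (median 8.8), again without overlap. The log2 fold change was 7.09 ± 0.49, or 136-fold (limma, adjusted p = 5.38e-08). Both genes were higher in the S100A9-high tumors in each of the 5 scan sessions that held both groups, by 6.12 to 8.58 log2 units for S100A8 and by 7.22 to 8.3 for S100A12. These differences within sessions are not class adjusted and rest on few tumors, down to 1 in a group. In some sessions the S100A9-high tumors were all undifferentiated and the S100A9-low tumors all differentiated. S100A8 and S100A12 stayed called under every one of the alternatives listed in the methods, including differentiated tumors alone (log2 fold changes of 7.04 and 6.62).

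Besides S100A9, 14 of 18 listed members of the S100 family had a probe, and 5 of the 14 rose, S100A8 and S100A12 among them, while none fell (over all genes 1.64% rose and 0.0256% fell). The median of the 14 was 0.33. The rest of those that rose are S100 genes known from epithelia. S100A14 read from 5.16 to 14.25 (median 13.06) in S100A9-high and from 1.65 to 11.89 (median 5.16) in S100A9-low tumors, a log2 fold change of 6.69 ± 1.22 (limma, adjusted p = 0.00236). S100A2 read from 8.13 to 15.96 (median 15.24) and from 7.06 to 14.31 (median 8.24), a log2 fold change of 5.8 ± 1.13 (limma, adjusted p = 0.00442). Unlike the calgranulins, both overlapped between the groups, and both lost the call without T9.1 or among differentiated tumors alone. These refits rest on the same contrast. S100A16 rose by 2.61 ± 0.4 (limma, adjusted p = 0.000706) and kept the call without T9.1 (limma, adjusted p = 0.00881). The widely expressed S100A4, S100A6, S100A10 and S100A11 had log2 fold changes of 0.44, 0.23, 0.01 and -0.07, none of them called. S100A8 and S100A12 were thus set apart from most of their family by the size of the difference and by groups that did not touch.

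**Figure D2:**
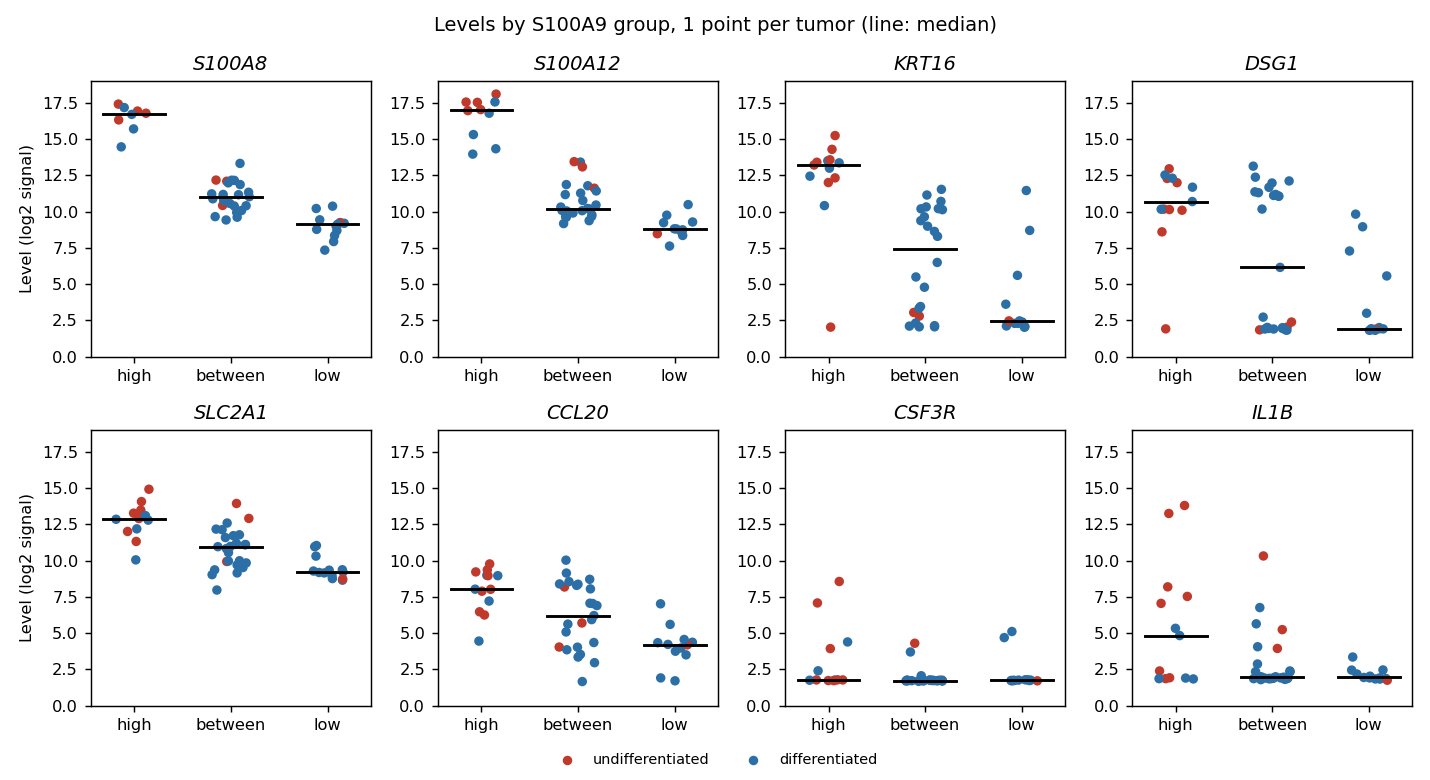
Level (log2 signal, vertical axis) of 8 genes in the S100A9-high, between and S100A9-low tumors, 1 point per tumor with a usable spot, red for undifferentiated and blue for differentiated MCT, the line marking the median of a group. S100A8 and S100A12 separate the high from the low tumors without overlap, KRT16 and DSG1 are high in 12 of 13 S100A9-high tumors and in a few S100A9-low tumors, and CSF3R and IL1B are high in only some S100A9-high tumors.

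Genes of the epidermis made up the largest differences. Of 16 measured keratinocyte genes (22 in the list) 12 rose and none fell (median log2 fold change 6.27), and of 11 measured genes of stressed or activated keratinocytes (22 in the list) 7 rose and none fell, with a median of 4.89. Against these stood the median of -0.04 over all genes and the 1.64% of all genes that rose.

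KRT16, a keratin of wounded and hyperproliferative epidermis, read from 2.03 to 15.24 (median 13.21) in the S100A9-high tumors and from 2.02 to 11.45 (median 2.42) in the S100A9-low tumors. It was well above background on 12 of 13 S100A9-high, 15 of 25 between and 4 of 13 S100A9-low arrays, so the groups overlapped through a single low value among the S100A9-high and a few high values among the S100A9-low tumors. The log2 fold change was 8.68 ± 1.49 (limma, adjusted p = 0.00172). DSG1, a desmosomal cadherin of the upper epidermis, had the same detection in the S100A9-high and the S100A9-low tumors, 12 and 4 of 13, with levels from 1.91 to 12.95 (median 10.69) and from 1.81 to 9.82 (median 1.92). Its log2 fold change was 7.57 ± 1.33 (limma, adjusted p = 0.00176). Without T9.1 both kept their size, 8.45 and 7.49, but not the call (limma, adjusted p = 0.0119 and 0.0111). Within the 5 shared scan sessions KRT16 was higher by 6.02 to 11.46 and DSG1 by 5.55 to 10.11 log2 units, again from few tumors and not class adjusted.

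KRTDAP, a secreted protein of differentiating keratinocytes, had the largest called change, 8.95 ± 1.5 (limma, adjusted p = 0.00125), with levels from 7.4 to 17.85 (median 17.25) against 5.44 to 15.94 (median 6.43). HAL, the histidine-degrading enzyme histidase of the stratum corneum, had one of the firmest, 7.47 ± 0.93 (limma, adjusted p = 0.000101), with levels from 6.59 to 12.15 (median 10.01) against 1.73 to 8.69 (median 1.96). Both kept the call without T9.1, and in both the highest S100A9-low tumors reached into the range of the S100A9-high tumors. The epidermal proteases KLK6 and KLK7, which act in the shedding of corneocytes, rose by 7.7 ± 1.3 and 7.67 ± 1.37 (limma, adjusted p = 0.00129 and 0.00216), and the protease inhibitor gene WFDC5 rose by 8.16 ± 1.26 (limma, adjusted p = 0.000829). Of the structural genes, IVL, which encodes the cornified envelope protein involucrin, rose by 8.26 ± 1.79, PERP, a desmosome-associated membrane protein, by 8.34 ± 1.71, and the keratins KRT2, KRT17, KRT5 and KRT10 by 7.84, 5.7, 5.44 and 4.28 (limma, adjusted p between 0.00103 and 0.00866). Without T9.1, KLK6, KLK7, IVL, PERP, KRT2, KRT17 and KRT5 lost the call. KRT5 has 4 other probes on the array, of which 1 was called. KRT1 and KRT14 had log2 fold changes of 11.54 ± 2.94 and 5.29 ± 1.3 but did not reach the limit (limma, adjusted p = 0.0283 and 0.0247). KRT14 has 2 other probes, of which 1 was called up. KRT6B had a log2 fold change of 0.29 (limma, adjusted p = 0.319).

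The mean of the 16 keratinocyte genes in a tumor ran from 4.71 to 13.66 (median 12.18) in the S100A9-high group, from 4.42 to 11.77 (median 4.92) in the S100A9-low group and from 4.19 to 13.41 (median 7.98) between them. It was above every S100A9-low tumor in 8 of 13 S100A9-high tumors. The stress-associated list ran from 5.32 to 10.6 (median 9.85) against 4.66 to 9.05 (median 4.96), and was above every S100A9-low tumor in 11 of 13. The tumors between the groups covered nearly the whole range of the keratinocyte list, so that a high keratinocyte mean also occurred with a middling S100A9 score. The exception at the top was the undifferentiated tumor T57.1. Its S100A9 score was 16.83, its S100A8 level 16.78 and its S100A12 level 17.53, but its keratinocyte mean was 4.71, and KRT16 at 2.03 and DSG1 at 1.91 were not above background.

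With the keratinocyte mean of each tumor as a further covariate, an alternative chosen after seeing the data, 2 probes stayed called in place of 511, those for S100A8 (log2 fold change 6.76, limma, adjusted p = 1.63e-05) and S100A12 (6.51, limma, adjusted p = 0.000725). The loss of a call did not always go with the loss of the difference. The 192 up-regulated genes had a median log2 fold change of 3.17 without and 0.82 with this covariate, and of all 195 called genes 171 kept their sign and 77 also kept at least a 2-fold difference. The 12 called genes of the keratinocyte list are themselves part of this mean, so their drop was built in and carries no information. DSG1, at 0.29 ± 0.42, is such a gene. Of genes outside that list, KRT16 went to 0.27 ± 0.85. SLC2A1 was at 2.44 ± 0.71, HAL at 2.95 ± 0.7, CCL20 at 2.24 ± 0.98, SYCP2 at -1.84 ± 0.47 and CFI at -2.14 ± 0.52. How much of the difference in these genes belongs to the epidermis in the sample was not tested beyond this.

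**Figure D3:**
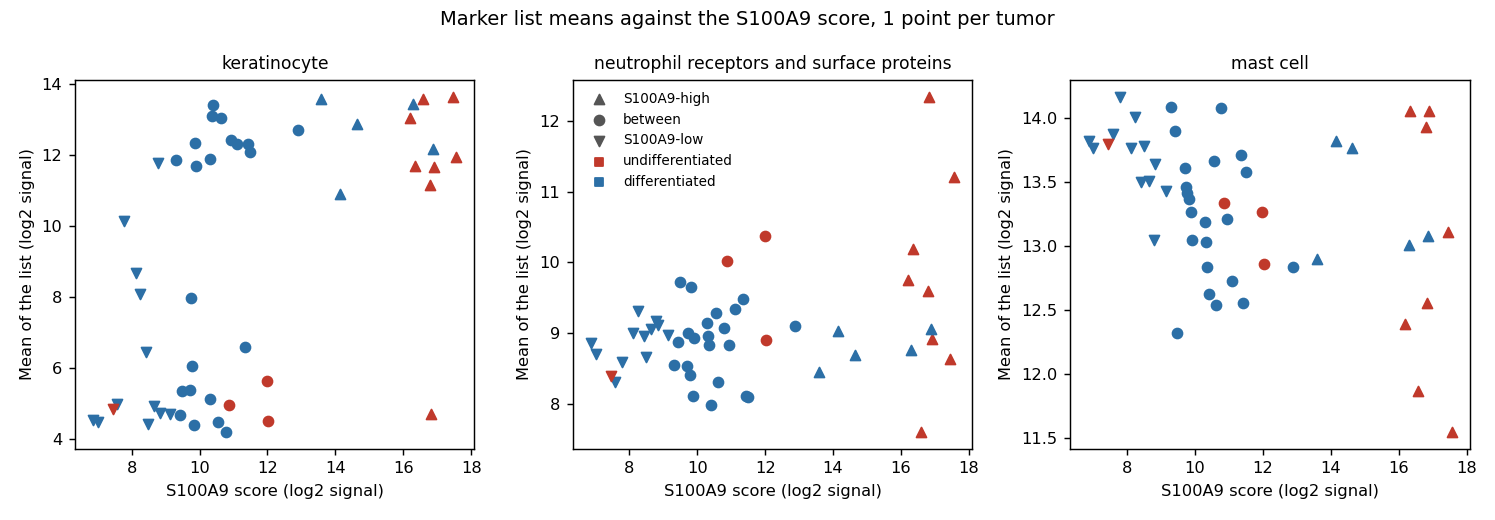
Mean log2 signal of the measured genes of 3 marker lists (vertical axes) against the S100A9 score (log2 signal, horizontal axes), 1 point per tumor of 51, with upward triangles for S100A9-high, circles for between and downward triangles for S100A9-low tumors, red for undifferentiated and blue for differentiated MCT. Keratinocyte means are above 10 in 12 of 13 S100A9-high tumors, the neutrophil receptor mean is highest in T57.1 (12.34) and T114.1 (11.2), and the mast cell means of the groups overlap.

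Neutrophil genes gave few calls. Against the 1.64% of all genes that rose, a list this short may well hold none, so the medians are given with the counts. Of 15 measured granule protein genes (21 in the list) 2 rose, with a median of -0.11. Of 11 measured receptor and surface genes (20 in the list) none was called, with a median of -0.32, which became 0.6 with the keratinocyte mean as covariate. None of the 6 subunit genes of the phagocyte NADPH oxidase was called, all 6 having values below 0 (median -0.3). MPO, PRTN3, AZU1, MMP8, CXCR1, FPR1, FPR2 and TREM1 have no probe under these names, so the azurophil granule is read through few genes.

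The granule genes that rose are made by other cells as well. ARG1, arginase, is stored in neutrophil granules and is also an enzyme of the upper epidermis. It read from 6.31 to 12.93 (median 10.85) in S100A9-high and from 5.8 to 8.25 (median 7.35) in S100A9-low tumors, a log2 fold change of 3.3 ± 0.63, or 9.87-fold (limma, adjusted p = 0.00302). SLPI, a leukocyte protease inhibitor that epithelia secrete too, read from 7.34 to 11.81 (median 10.57) and from 5.45 to 9.56 (median 6.12), a change of 2.86 ± 0.59, or 7.24-fold (limma, adjusted p = 0.00602). Both ranges overlapped, and without T9.1 neither gene was called (limma, adjusted p = 0.0124 and 0.0544). ARG1 also lost the call with scan session as a block (0.0136) but kept it among differentiated tumors alone (0.00229), and SLPI the reverse (0.0019 and 0.075). SLPI has 1 other probe, with a log2 fold change of 4.19, which was not called. ARG1 has 2 other probes, both called up.

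The other genes of the neutrophil lists gave no call, and LCN2 among them is also in the list of stress-associated keratinocyte genes. ELANE, neutrophil elastase, read from 2.52 to 4.39 (median 3.75) against 2.71 to 5.15 (median 4.02) and was well above background on 6 of 13 arrays in each group (log2 fold change -0.55 ± 0.31, limma, adjusted p = 0.355). LTF, lactoferrin, had a change of 1.53 ± 0.83, CAMP, the cathelicidin gene, one of -0.47 ± 0.47, MMP9, gelatinase B, one of -0.08 ± 0.84, and LCN2, the neutrophil gelatinase-associated lipocalin, one of -1.96 ± 0.54 (limma, adjusted p = 0.32, 0.609, 0.967 and 0.0384). The granule genes TCN1 and CD177 were higher without a call, by 1.53 ± 0.43 and 0.74 ± 0.23 (limma, adjusted p = 0.0422 and 0.0658). The mean level of TCN1 was 5.87 in S100A9-high and 3.03 in S100A9-low tumors. Its signal clearly exceeded background in 12 S100A9-high and 0 S100A9-low tumors. Of the 15 measured granule genes 6 had values above 0, the 2 called ones included. IL1R2, the decoy receptor for interleukin 1, came closest to a call among the receptors, at 2.94 ± 0.72 (limma, adjusted p = 0.0241), and was called without the class as covariate.

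CSF3R, the receptor for granulocyte colony-stimulating factor, read from 1.72 to 8.56 (median 1.78) in S100A9-high and from 1.71 to 5.11 (median 1.74) in S100A9-low tumors, and was well above background on 4 and 2 arrays. Its log2 fold change was 0.65 ± 0.91 (limma, adjusted p = 0.73). Only T57.1 at 8.56 and T114.1 at 7.08 exceeded every S100A9-low tumor. CXCR2, the receptor for neutrophil-attracting chemokines, read from 4.12 to 10.39 (median 5.55) and from 3.34 to 5.14 (median 4.07), a change of 0.89 ± 0.55 (limma, adjusted p = 0.387), with T57.1 and T114.1 again highest at 10.39 and 9.03. The mean of the receptor list was 12.34 in T57.1 and 11.2 in T114.1, against medians of 9.03 in the S100A9-high and 8.96 in the S100A9-low group. It was above every S100A9-low tumor in 5 of 13 S100A9-high tumors, and CXCR2 was so in 7 of 12. The highest levels of these receptor genes were therefore those of 2 undifferentiated S100A9-high tumors. The medians of the groups were close for CSF3R and for the list mean, but not for CXCR2 (5.55 against 4.07).

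Cytokine genes differed in how widely they were raised. None of the 18 measured inflammatory cytokine and receptor genes was called (27 in the list, median 0.3). At the 1.64% of all genes that rose, a list this short may well hold none. IL1B, interleukin 1 beta, was well above background on 7 of 13 S100A9-high, 4 of 25 between and 0 of 13 S100A9-low arrays. Its level ran from 1.84 to 13.8 (median 4.83) against 1.75 to 3.35 (median 1.94), with T57.1 at 13.8 and T114.1 at 13.25 far above the rest, and the class-adjusted change was not called (at least 2.7-fold higher by measured means, limma, adjusted p = 0.457). The bound takes the dimmest signal that was well above background as the S100A9-low level. These IL1B values are those of its brightest probe. Its 2 other probes had log2 fold changes of -0.08 and 0.53, neither called. IL1A, interleukin 1 alpha, which keratinocytes store, read from 4.11 to 13.73 (median 6.92) against 2.04 to 5.6 (median 3.84) and was above every S100A9-low tumor in 11 of 13 S100A9-high tumors. It was well above background on 12 and 4 arrays. Its change of 2.68 ± 0.84 was not called with the class as covariate (limma, adjusted p = 0.0741) and was called without it. IL6 had a change of 1.13 ± 1.13, while TNF had one of -0.37 ± 0.35 (limma, adjusted p = 0.616 and 0.594).

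Of 7 neutrophil-attracting chemokines, CXCL8 and PPBP had a probe. CXCL8, interleukin 8, read from 8.4 to 15.34 (median 9.02) in 10 S100A9-high tumors and from 4.17 to 9.68 (median 6.99) in 11 S100A9-low tumors, the spot being flagged in T57.1, T114.1 and others. The change of 2.47 ± 1.07 was not called (limma, adjusted p = 0.213). Among 17 measured chemokines for other leukocytes (21 in the list, median 0.21) CCL20 rose, where 1.64% of all genes did. This chemokine, which epithelia release and which draws dendritic cells and lymphocytes through CCR6, read from 4.45 to 9.77 (median 8.03) against 1.71 to 7.02 (median 4.21), a change of 3.57 ± 0.69, or 11.9-fold (limma, adjusted p = 0.00337). It was higher by 2.47 to 4.85 log2 units within each of the 4 scan sessions that gave a value, from few tumors and not class adjusted. The call was lost among differentiated tumors alone (limma, adjusted p = 0.0391), without T9.1 (0.0248) and with scan session as a block (0.0572). The refits among differentiated tumors alone and without T9.1 rest on the same contrast.

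The signaling lists gave few calls, and at the 1.64% of all genes that rose, lists of this length may well hold few or none. None of 13 pattern recognition and inflammasome genes (median -0.01), 29 NF-kB and acute inflammatory targets (median 0.1), 24 interferon-stimulated genes (median -0.44) or 11 antigen presentation genes of class II (median 0.03) was called. SELE, endothelial E-selectin, had the highest value of the NF-kB list, 2.73 ± 0.91 (limma, adjusted p = 0.0928), and SAA1, an acute-phase protein, one of 1.89 ± 0.88 (limma, adjusted p = 0.241). Of 22 hypoxia and glycolysis genes (median -0.05) SLC2A1 rose. It encodes the glucose transporter GLUT1, which basal keratinocytes and many tumors carry, and read from 10.05 to 14.92 (median 12.9) against 8.65 to 11.04 (median 9.21), with little overlap and a change of 3.03 ± 0.47, or 8.18-fold (limma, adjusted p = 0.000863). With scan session as a block the change was 2.81 (limma, adjusted p = 0.0129). CA9 and VEGFA, other genes of the hypoxia response, had values of 1.58 and -0.09 and were not called. Of 13 matrix metalloproteinase and inhibitor genes (median 0.64) MMP7, the epithelial matrilysin, rose by 4.79 ± 0.91, or 27.7-fold (limma, adjusted p = 0.00272), from 1.85 to 5.88 (median 2.16) in S100A9-low to 2 to 10.84 (median 8.04) in S100A9-high tumors, and lost the call without T9.1 (0.0211) and with scan session as a block (0.0158). None of 22 mitosis genes was called (median 0.54, and 1.53 without the class as covariate). PRC1, a spindle midzone protein, came closest at 1.27 ± 0.36 (limma, adjusted p = 0.0472).

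**Figure D4:**
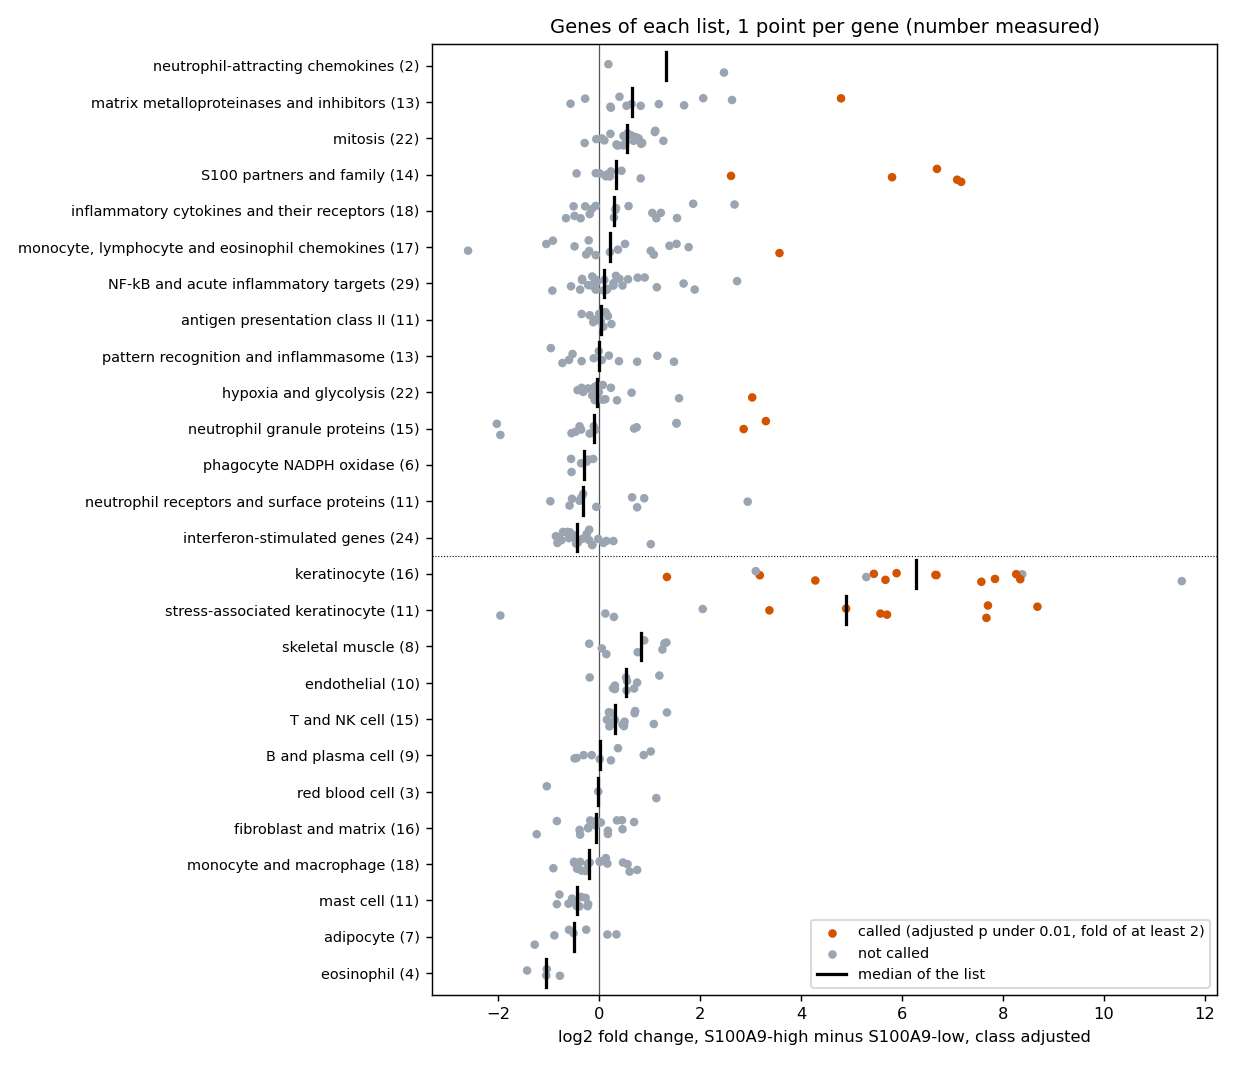
Log2 fold change (S100A9-high minus S100A9-low, class adjusted, horizontal axis) of every measured gene of the 26 lists, 1 point per gene, orange where called and gray where not, with a black bar at the median of each list and the number measured in parentheses. The keratinocyte lists have medians of 6.27 and 4.89, and no other list has a median above 1.33.

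Other cell types gave no called gene, but at the 1.64% of all genes that rose, lists of this length may well hold none. All 11 measured mast cell genes had values below 0, with a median of -0.45. KIT read from 9.11 to 15.04 (median 12.73) in S100A9-high and from 13.08 to 14.6 (median 13.77) in S100A9-low tumors, a change of -0.84 ± 0.51 (limma, adjusted p = 0.381), so the S100A9-high tumors spread more widely in both directions. The mean of the mast cell list was between 11.55 and 14.06 (median 13.08) against 13.05 to 14.17 (median 13.77), and its share in the other differences was not tested. The medians were -0.21 for 18 monocyte and macrophage genes, 0.31 for 15 T and NK cell genes, 0.01 for 9 B and plasma cell genes, -1.05 for 4 eosinophil genes, -0.07 for 16 fibroblast and matrix genes, 0.53 for 10 endothelial genes, 0.83 for 8 skeletal muscle genes, -0.51 for 7 adipocyte genes and -0.02 for 3 red blood cell genes. Among their defining markers CD163, a scavenger receptor of macrophages, had a change of -0.5 ± 0.45, CD3D, a chain of the T cell receptor complex, one of 0.71 ± 0.53, the eosinophil receptor gene CCR3 one of -0.78 ± 0.61, COL1A1 of collagen one of 0.35 ± 0.64 and PECAM1 of endothelium one of 0.53 ± 0.38 (limma, adjusted p between 0.469 and 0.807). Monocytes are the other main source of calgranulins in blood, and a list of 18 genes without a call does not tell whether they differed.

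Few genes separated the groups completely. Of 11638 genes with at least 8 values in each group, all S100A9-high values lay above all S100A9-low values for 9 (0.0773%) and below them for 1 (0.00859%). Besides S100A8 and S100A12 these were EHF, an ETS-family transcription factor of epithelia (4.29 ± 0.87, limma, adjusted p = 0.00935), the kallikrein KLK11 (3.52 ± 0.42, adjusted p = 6.63e-05) and the homeobox gene DLX5 (2.89 ± 0.4, adjusted p = 0.000377), of which EHF lost the call without T9.1 (adjusted p = 0.0181), followed by HINT3, C15H1orf109, SELENOS and RAB10 with changes of 1.13, 0.61, 0.56 and 0.52. LUC7L, a splicing factor, was the gene below, at -0.45 ± 0.11. The 3 down-regulated genes were SYCP2, CFI and BBOF1. SYCP2, a component of the meiotic synaptonemal complex, read from 6.39 to 8.46 (median 7.61) in S100A9-high and from 8.14 to 10.39 (median 9.82) in S100A9-low tumors and fell by 2.2 ± 0.33 (limma, adjusted p = 0.000664). CFI, complement factor I, read from 9.83 to 12.18 (median 11.08) and from 11.87 to 14.45 (median 13.26) and fell by 1.62 ± 0.33 (limma, adjusted p = 0.00629). Both groups met only at their edges in these genes. BBOF1, a protein of ciliary basal bodies, was not well above background on any S100A9-high array, and its fall is a bound of at least 1.01-fold (limma, adjusted p = 0.00849). SYCP2 kept the call in 42 of 43 refits under the alternatives, CFI in 28 of 43 and BBOF1 in 15 of 42. Without T9.1 the adjusted p of CFI was 0.0335 and that of BBOF1 0.0298.

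The 25 tumors between the groups took no part in these calls, although their own scores, from 9.31 to 12.89, span far less. In them the slope of each probe on the S100A9 score was fitted with the class as covariate, and 1 of 43594 probes was called at an adjusted p under 0.01 (0.00229%), with 3611 (8.28%) at an unadjusted p under 0.05. The probe called was that of S100A8, which gained 1.06 ± 0.1 log2 units per unit of S100A9 (limma, adjusted p = 9.55e-07). S100A12 gained 0.91 ± 0.16 per unit (limma, adjusted p = 0.0915, unadjusted p = 8.39e-06). Both slopes were near 1, that is, these genes kept pace with S100A9. The slopes of KRT16, DSG1 and HAL were 1.32, 1.7 and 1.49 (unadjusted p = 0.114, 0.12 and 0.104 by limma), those of ARG1 and SLC2A1 0.24 and 0.23 (0.245 and 0.464), that of CCL20 1.22 (0.0241), that of MMP7 1.59 (0.00665) and that of CXCL8 -0.27 (0.512). S100A8 was thus the gene that passed the adjustment in the middle range of S100A9, and S100A12 was not called there. As a slope over all 51 tumors, the members of both groups included, 2348 of 43601 probes (5.39%) had an adjusted p under 0.01.

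Whether the genes follow S100A9 alike in both classes was asked with an interaction of score and class over the 51 tumors. The slopes differed for 15 of 43600 probes (0.0344%, limma, adjusted p under 0.01), with 4009 (9.19%) at an unadjusted p under 0.05. S100A8 and S100A12 were not among the 15. The difference for S100A8 was -0.07 ± 0.06 per unit of S100A9 (limma, adjusted p = 0.82).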

How the data were processed

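The authors extracted and background-subtracted the scans with Agilent Feature Extraction and deposited, per array, the processed signal, an intensity not normalized between arrays, as well as a table of intensities normalized over the 51 arrays. The log2 values used here were computed from the deposited processed signal, quantile-normalized over 51 arrays. Of 43803 spots, outlier flags (718 to 3291 per array) were set to missing except in the S100A9 score, and spots of a probe were averaged, leaving 43603 probes, 19339 with a symbol. Names were those of the array design, with older symbols matched by hand. The number of arrays limits the precision.

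Computations ran in R 4.3.3 with statmod 1.5.0, data.table (version 1.17.8) and limma 3.58.1, and figures in numpy 2.4.6 and matplotlib 3.10.9. Groups were compared with limma on 26 arrays with class as covariate, with Benjamini-Hochberg adjustment over all probes, and the limits were those the study set for its own comparison, a false discovery rate (here the adjusted p) under 0.01 with at least 2-fold difference. Because the groups were cut from a measured value, the adjusted p describes how firmly a gene goes with S100A9 in these tumors. The classes of the unknown samples are not in the labels and were taken from the study, where they were predicted from these arrays, and 1 reference sample, a tumor between the groups, was matched to its class by elimination.

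A gene was represented by its brightest probe over the 26 arrays. Of the 57 called genes with further probes, 82 of their 84 other probes had the same sign and 58 were called the same way. Genes named are S100A8, S100A9 and S100A12, up to 4 called members of each list (or the member with the smallest p), the 10 largest called changes in each direction and defining markers. Others, the genes of complete separation and those of the closing observations among them, were chosen after their values were seen. Of 450 list genes 335 had a probe. For 1 defining marker no separate value is given here. The members and lists were chosen with earlier results of these data known. The steps were tested on simulated data.

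Alternatives were normalization to the 75th percentile, normexp (offset 50), only probes well above background on at least 7 arrays, flagged spots kept, the authors' table, no class, differentiated tumors only, all 51 arrays, slide or scan session as a block, sex as covariate, an adjusted p under 0.05, a slope over 51 tumors, members chosen from other S100A9 measures, and each tumor left out. The keratinocyte mean as covariate, and the slope by class without T9.1, were added after seeing the data.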

Additional observations from a re-analysis of the deposited data

Results flagged for a closer look

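Over the 51 tumors, with the S100A9 score and the class in 1 limma fit, the slope on the score differed between undifferentiated and differentiated MCTs for 15 of 43600 probes (0.0344%, adjusted p under 0.01), against 4009 (9.19%) at an unadjusted p under 0.05. Of the 15 probes 4 have a gene symbol. The slope in undifferentiated minus that in differentiated tumors was -0.16 log2 units per unit of S100A9 for ADAM29 (adjusted p = 0.000314), -0.54 for ART1 (adjusted p = 0.00464), -0.16 for STX10 (adjusted p = 0.00588) and 0.19 for KIZ (adjusted p = 0.0097). ART1, a mono-ADP-ribosyltransferase, had slopes of -0.33 and 0.21 in the 2 classes, whereas the other genes had slopes of 0, 0 and -0.02 in differentiated tumors. None of the calgranulin or keratinocyte genes named in the report was among them, the difference for S100A8 being -0.07 ± 0.06. Without T9.1, the only undifferentiated S100A9-low tumor, 5 probes were called, 2 of them among the 15.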

How the results depend on the processing

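S100A8 and S100A12 kept direction and call in all 43 refits of the groups. The 511 probes called became 322 with normexp, 1096 without class, 269 in differentiated tumors only, 208 with sex as covariate (T53 and T132, of no stated sex, left out), 1032 at an adjusted p under 0.05, 2348 as a slope over 51 tumors and 2 with the keratinocyte mean as covariate, and ranged from 143 to 767 with a tumor left out. Without class, 2 probes were called in the 25 tumors between. The median of the stress-associated keratinocyte list was 2.61 with normexp, that of red blood cell genes 1.13 with dim probes filtered, and that of mitosis genes 1.53 without class. With the keratinocyte mean as covariate the medians were 0.6 for neutrophil receptors, 1.3 for cytokines, 0.88 for NF-kB targets, 0.05 for keratinocyte and 0.4 for stress-associated keratinocyte genes. The keratinocyte genes, PERP, IVL and KRT5 among them, make up that mean, so their values were held down by the covariate itself. With this covariate the sign turned for PERP (-1.30), IVL (-0.47), KLK7 (-0.37), KRT17 (-0.84), KRT5 (-0.17), COL1A1 (-0.26), ACTA1 (0.03), LEP (0.09) and CD163 (0.15), none of them called. COL1A1 was -0.06 in differentiated tumors only and -0.06 to 0.68 with a tumor left out, the lowest without T9.1. Without T9.1 the slope differed between classes for 5 probes. Of the other values of named genes 2120 kept direction and side of the limit, 185 lost the call and 13 gained it. The causes were not tested. No paired analysis was possible because the labels give no numbers shared between the groups. Probes near background have imprecise folds.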

Other observations

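Among the 163 up-regulated genes outside the lists, the following were chosen after their values were seen and stand for no tested group (limma, same comparison). LASS3, a ceramide synthase gene, rose by 6.04 ± 0.83 log2 units (adjusted p = 0.000354), AQP3, a water and glycerol channel, by 5.32 ± 0.91 (adjusted p = 0.00142), and TFAP2C, a transcription factor of epithelia, by 5.36 ± 0.72 (adjusted p = 0.000319). Without T9.1 these kept the call (adjusted p = 0.00471, 0.00903 and 0.00404). With the keratinocyte mean as covariate none was called, with log2 fold changes of 1.65, 1.05 and 1.89.

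Others rose but lost the call without T9.1. SPINK5, an inhibitor of epidermal kallikreins, rose by 5.99 ± 1.16 (adjusted p = 0.00333, and 0.0188 without T9.1), CDSN, corneodesmosin of the corneocyte junctions, by 5.05 ± 1 (adjusted p = 0.00404, and 0.0137 without T9.1), and IL22RA1, the epithelial receptor chain for interleukin 22, by 2.35 ± 0.44 (adjusted p = 0.0027, and 0.0177 without T9.1). With the keratinocyte mean as covariate their log2 fold changes were -0.14, -0.21 and 0.82. AREG, the growth factor amphiregulin, rose by 4.91 ± 0.79 (limma, adjusted p = 0.00107, and 0.0105 without T9.1), and stood at 4.48 ± 1.21 with that covariate, not called.

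NQO1, a quinone reductase, rose by 3.06 ± 0.42 (limma, adjusted p = 0.000332, and 0.00471 without T9.1). It read from 9.32 to 13.17 (median 11.94) in S100A9-high and from 7.63 to 10.54 (median 8.43) in S100A9-low tumors, so the groups overlapped, and with the keratinocyte mean as covariate the difference was 0.95 ± 0.28, not called.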
